A study of Mus musculus with 51 samples.

Results

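The strain of origin was followed here as a source of allelic H3K4me3 in the mouse epiblast at embryonic day 6.5. In an F1 hybrid of C57BL6/Babr (B6) and CAST/EiJ (CAST), every autosomal region carries 1 B6 and 1 CAST allele, and the reciprocal crosses B6/CAST and CAST/B6, written with the mother first, exchange which parent brought which. An allele ratio that follows the strain keeps its direction between B6 and CAST in both crosses, whereas an imprinted ratio turns over. The data were the 4 wild-type epiblast H3K4me3 libraries of the 51 libraries in the series, namely B6/CAST replicates 1 and 2 and CAST/B6 replicates 2 and 3, each from a pool of 4 epiblasts. Each H3K4me3 read that covered a variant between the strains had been assigned to an allele. Of 33329 autosomal H3K4me3 peaks, 20328 (61.0%) were informative, which means that at least 1 allele of 1 wild-type library held at least 20 reads. Other libraries entered as comparisons only: extra-embryonic ectoderm (ExE) of the same crosses and stage, and epiblast of matDKO/CAST. In matDKO/CAST the mothers carried floxed Dnmt3a and Dnmt3b deleted in growing oocytes by the oocyte promoter of Zp3-cre, the fathers were CAST, and the mothers were partly of 129 origin, so that the maternal allele there is B6 or 129.

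H3K4me3 is laid down by SET1 and MLL complexes around active and poised transcription start sites, most broadly at CpG islands, and weaker peaks lie at enhancers and transposable elements. Both alleles of an F1 hybrid share the nucleus and its transcription factors, and so a difference between them is commonly read as a difference that travels with the allele itself. The epiblast is the pluripotent layer that gives rise to the embryo proper, and by this stage its genome outside promoters carries high DNA methylation.

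The wild-type libraries held 6.06, 4.69, 5.14 and 1.36 M allele-assigned reads in autosomal peaks, in the order B6/CAST replicates 1 and 2 and CAST/B6 replicates 2 and 3, so CAST/B6 replicate 3 was the shallowest. The B6 allele took 50.5 to 51.6% of them. B6/CAST replicate 1 stood apart on 2 chromosomes. Its B6 share was 58.7% on chromosome 3 and 58.5% on chromosome 11, against at most 50.9% on the other 17 autosomes, and the other wild-type libraries had from 50.5 to 51% on these 2. The label of the tissue was checked against total H3K4me3 at start sites. The summed signal of 7 epiblast markers was 197 to 263 RPKM in the 4 epiblast libraries and 64.3 to 109 RPKM in the 4 ExE libraries, and 5 of the 7, such as Pou5f1 with 39.0 to 55.4 against 3.79 to 10.6 RPKM, were higher in every epiblast library, while Utf1 and L1td1 overlapped. The sum of 7 ExE markers was 89.6 to 136 RPKM in epiblast and 136 to 181 RPKM in ExE. Of these, 4 were higher in every ExE library, such as Elf5 with 11.8 to 15.6 against 0.405 to 2.78 RPKM, while Eomes, Bmp4 and Esrrb overlapped. The summed signal of 8 visceral endoderm markers was 48.2 to 79.3 RPKM in epiblast and 68.1 to 106 RPKM in ExE. Of these, 4 were higher in every ExE library, Foxa1 was higher in every epiblast library and the others overlapped. The sum of 4 mesoderm markers was 40.3 to 88.3 RPKM in epiblast and 50.8 to 65.8 RPKM in ExE, and all 4 overlapped. The part of either cell type in the allele ratios was not tested.

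The alleles were compared first in each cross on its own, and a peak was called strain-specific if its adjusted p-value was below 0.05 in each (edgeR) and 1 strain was the higher in both. This gave 171 peaks, 97 with more H3K4me3 on the B6 allele and 74 with more on the CAST allele, or 0.841% of the informative peaks (0.477% and 0.364%). In pooled tissue, fewer cells with the mark and less of the mark per cell cannot be told apart. In all 171 each of the 4 libraries showed the direction. The median log2 ratio of B6 to CAST in a joint fit of both crosses was 2.94 for the B6-higher peaks and -3.03 for the CAST-higher peaks. The ratio ranged from 1.01 to 6.91 over the 85 B6-higher peaks with more than 3 CAST reads, and from -7.19 to -0.70 over the 72 CAST-higher peaks with more than 3 B6 reads. Of the other B6-higher peaks 4 had no CAST read, so that only a lower bound of the ratio can be given. At 41 of the 97 and 30 of the 74 peaks the higher allele took at least 90% of the reads. The joint fit, with terms for cross, parent and strain, called 1232 peaks (6.06%), 707 with B6 higher (3.48%) and 525 with CAST higher (2.58%), and these contained all 171. With the library as a block, since its 2 alleles are 1 sample, the counts were 596 (2.93%) and 3552 (17.5%), which contained all 171 and all 1232. The counts depended on single libraries. Without CAST/B6 replicate 2, the deeper of its cross, they were 3 and 121, without CAST/B6 replicate 3 they were 65 and 566, and without B6/CAST replicate 1, the library that stands apart, they were 69 and 674. When 1 library is left out, the lone one of its cross is assumed to vary like the others, and with all libraries such a fit called 201 strain-specific peaks. Without chromosomes 3 and 11 they were 173 and 1176. With all chromosomes, the joint fit called 49 peaks toward B6 and 12 toward CAST on chromosome 3, and 62 and 24 on chromosome 11.

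**Figure D1:**
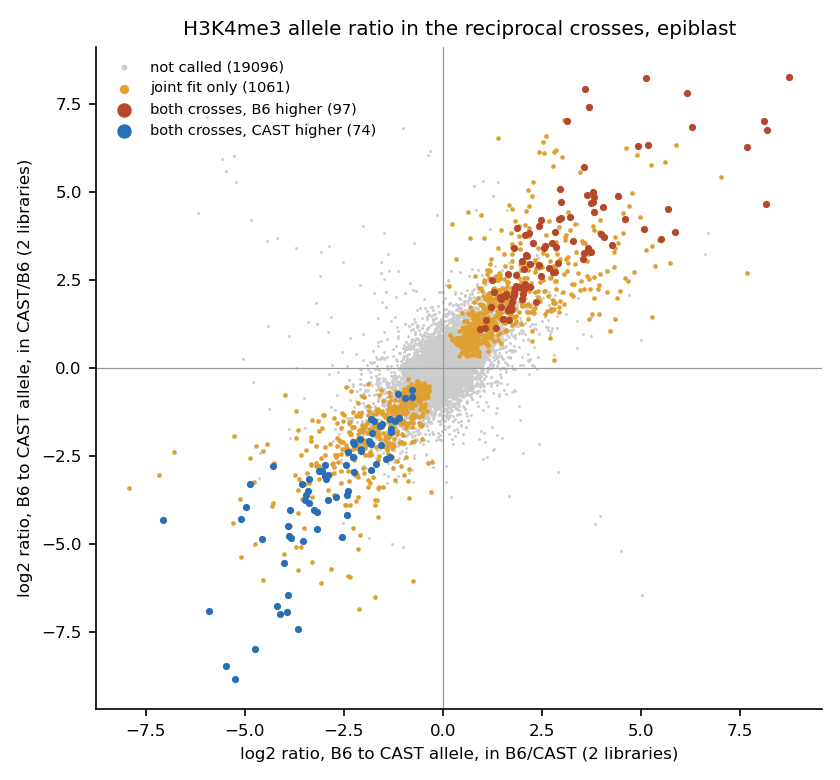
Log2 ratio of the B6 to the CAST allele of H3K4me3 at 20328 informative peaks, in B6/CAST on the horizontal axis and in CAST/B6 on the vertical axis, each from 2 libraries. The 97 B6-higher and 74 CAST-higher peaks called in both crosses lie in the upper right and lower left quadrants. A few of them lie near the centre, such as Cwc22. The 1061 peaks called by the joint fit alone have smaller ratios in the median. Grey points in the upper left and lower right quadrants have opposite directions in the crosses, which ratios near equality can have as well.

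The sequences around 6 start sites inside strain-specific peaks are shown because they span the range of promoter types at which the strains differed, from few CpG sites to many. They are RefSeq windows of 300 bases on GRCm38, from 250 bases before to 50 after the start, in the B6 reference, on the strand of the gene, with CpG dinucleotides in capitals. The CAST bases are not used here. The first 3 had more H3K4me3 on the B6 allele and the others had more on the CAST allele.
Gm8909 (chr17:36168488-36168787, minus strand): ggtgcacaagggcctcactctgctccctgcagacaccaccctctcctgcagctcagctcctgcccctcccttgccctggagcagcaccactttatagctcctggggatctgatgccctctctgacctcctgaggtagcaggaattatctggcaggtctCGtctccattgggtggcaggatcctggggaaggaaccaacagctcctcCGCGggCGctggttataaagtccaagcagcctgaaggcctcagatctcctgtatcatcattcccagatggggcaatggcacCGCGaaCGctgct
Trim12c (chr7:104353300-104353599, minus strand): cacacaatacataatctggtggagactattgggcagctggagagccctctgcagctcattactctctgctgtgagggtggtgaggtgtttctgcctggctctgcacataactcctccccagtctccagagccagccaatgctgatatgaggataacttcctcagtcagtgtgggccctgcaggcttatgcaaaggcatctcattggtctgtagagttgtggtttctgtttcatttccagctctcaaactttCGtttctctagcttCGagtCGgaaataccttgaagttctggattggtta
Zfp59 (chr7:27838334-27838633, plus strand): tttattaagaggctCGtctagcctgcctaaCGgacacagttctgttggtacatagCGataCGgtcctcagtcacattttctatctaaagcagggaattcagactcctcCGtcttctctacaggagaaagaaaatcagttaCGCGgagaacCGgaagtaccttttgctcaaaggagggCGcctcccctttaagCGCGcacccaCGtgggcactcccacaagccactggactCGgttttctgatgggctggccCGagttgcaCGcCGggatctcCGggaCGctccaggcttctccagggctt
H2-T3 (chr17:36190102-36190401, minus strand): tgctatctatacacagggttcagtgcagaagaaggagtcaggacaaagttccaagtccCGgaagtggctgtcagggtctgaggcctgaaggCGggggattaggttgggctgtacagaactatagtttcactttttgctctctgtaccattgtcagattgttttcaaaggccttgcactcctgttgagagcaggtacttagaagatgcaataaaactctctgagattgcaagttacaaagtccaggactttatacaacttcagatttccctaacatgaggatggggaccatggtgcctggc
AW146154 (chr7:41499841-41500140, minus strand): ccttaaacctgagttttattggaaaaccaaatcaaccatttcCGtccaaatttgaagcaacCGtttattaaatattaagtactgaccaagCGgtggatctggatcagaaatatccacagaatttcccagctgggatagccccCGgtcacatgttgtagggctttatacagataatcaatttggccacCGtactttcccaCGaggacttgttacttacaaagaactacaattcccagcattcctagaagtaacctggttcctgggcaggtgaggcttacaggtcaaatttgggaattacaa
Slc35e1 (chr8:72492565-72492864, minus strand): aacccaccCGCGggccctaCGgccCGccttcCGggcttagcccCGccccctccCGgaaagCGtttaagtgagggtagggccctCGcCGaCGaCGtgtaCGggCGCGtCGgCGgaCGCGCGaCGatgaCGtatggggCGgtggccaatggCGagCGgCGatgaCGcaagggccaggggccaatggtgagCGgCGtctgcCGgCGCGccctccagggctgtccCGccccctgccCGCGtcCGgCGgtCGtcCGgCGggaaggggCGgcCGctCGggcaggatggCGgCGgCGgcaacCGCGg
These windows held 7, 3, 18, 2, 6 and 48 CpG sites in that order. Of all 32851 RefSeq promoter windows, whose median was 7, 23.3% held as few as the 2 of H2-T3 or fewer, and 99.0% held as many as the 48 of Slc35e1 or fewer. The 6 were chosen to span this range, and the ratios are those of the whole peaks, so no relation to CpG sites can be read from them.

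Among the peaks with a start site and the largest ratios toward B6, several had nearly no CAST reads. At AC166748.2 (chr19:8251000-8254000) the B6 allele had 67, 43, 59 and 17 reads in the 4 libraries, in the order given above, and the CAST allele had none. This puts B6 at least 62-fold higher, against a floor of 3 reads over the group. Gm44203 (chr6:89200000-89202000) likewise had 36, 34, 31 and 4 B6 reads and no CAST read, at least 35-fold higher. Both genes are known by clone or predicted names alone. Input, the chromatin before precipitation in 6 wild-type epiblast libraries, was low there, at 0.513 and 0.452 of the median peak.

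At Gm49330 (chr12:17991500-17995000), another predicted gene, the B6 share of reads was 98.1, 100, 100 and 100%, from 145 B6 reads and 1 CAST read (adjusted p = 3.17e-07), and input was 0.388 of the median. Over all 4 libraries this is a B6 share of 99.3%, with an exact Clopper-Pearson 95% interval from 96.2 to 99.98% that covers counting error only. Gm8909 (chr17:36166500-36169500), which lies among the class I genes of the major histocompatibility complex, had B6 shares of 96.8, 98.1, 95.2 and 91.2%, and a log2 ratio of 4.51 ± 0.32 (SE, adjusted p = 1.15e-09), also with low input (0.418). In this peak, which holds the promoter printed above for Gm8909 and a start site of Gm20478, at least 91.2% of assigned reads were on B6 in all 4 libraries. The part of input in this ratio was not tested.

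Other B6-specific start sites had input near the median. Slc23a4 (chr6:34954500-34957000), a member of the nucleobase and ascorbate transporter family, had B6 shares of 90.9, 95.6, 100 and 100% (log2 ratio 5.99 ± 0.60, adjusted p = 4.33e-07, input 1.09 of the median). Tbk1 (chr10:121568000-121570500), a kinase of the antiviral interferon pathway, had 97.9, 98.3, 95.6 and 80.0% (4.57 ± 0.53, adjusted p = 2.80e-06). Here the lowest share came from the shallowest library, with 4 B6 reads and 1 CAST read. A230087F16Rik (chr12:111284000-111286500) had 96.2, 97.0, 93.9 and 100%, and Gm18958 (chr7:84800000-84802000) had 100, 100, 100 and 90.9%.

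Toward CAST the largest ratio at a start site was at Osbpl10 (chr9:115053000-115055000), which encodes an oxysterol-binding lipid transfer protein. Its B6 share was 0.917, 3.80, 0 and 0%, from 4 B6 and 270 CAST reads in all, and its log2 ratio was -7.19 ± 0.51 (adjusted p = 1.99e-09). It was followed by Slc35e1 (chr8:72490500-72495000), a solute carrier, with B6 shares of 2.61, 7.69, 4.55 and 0%, and Ubxn7 (chr16:32330500-32337000), an adaptor of the p97 segregase, with 4.49, 9.17, 3.05 and 5.17%. Their log2 ratios were -4.73 ± 0.42 (adjusted p = 4.60e-08) and -4.33 ± 0.25 (adjusted p = 4.38e-11). Both are strong promoters, with 23.2 and 15.7 RPKM of total H3K4me3, while only 272 and 553 reads could be assigned to an allele.

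Hjurp and Trpm8 share a peak (chr1:88274500-88280500) whose B6 share was 12, 11.1, 11 and 10.2%. Hjurp is the chaperone of the centromeric histone CENP-A, and Trpm8 is the cold-sensing ion channel. The spread was narrow, with 11.1% ± 0.712 (SD, n = 4) and a log2 ratio of -3.03 ± 0.16 (adjusted p = 8.79e-12), and input over the peak was 4.21 times the median, the highest among the 171 strain-specific peaks. Gm42642 (chr6:3181500-3185000) had B6 shares of 9.31, 8.82, 12.4 and 9.52%, with an input of 2.06 times the median. AW146154, with Gm20449 (chr7:41497500-41501500), had 18, 21.3, 20.2 and 19.2% and an input of 1.77 times the median, on 3944 reads, the most among the 171. At these 3 peaks the share of the B6 allele varied little between libraries and input was above the median, and the part of input in the ratio was not tested.

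Fam83a, Rps6kl1 and H2-T3 were also among the CAST-higher start sites with the largest ratios. Fam83a (chr15:58001000-58003000) had B6 shares of 11.3, 0, 3.85 and 9.09%. Rps6kl1 (chr12:85138500-85142000), a kinase-like protein, had 26.7, 28.6, 15.1 and 14.8%, so its share was lower in both CAST/B6 libraries than in both B6/CAST libraries. H2-T3 (chr17:36188500-36191000), a nonclassical class I gene, had 17.6, 21.6, 21.4 and 6.67%.

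**Figure D2:**
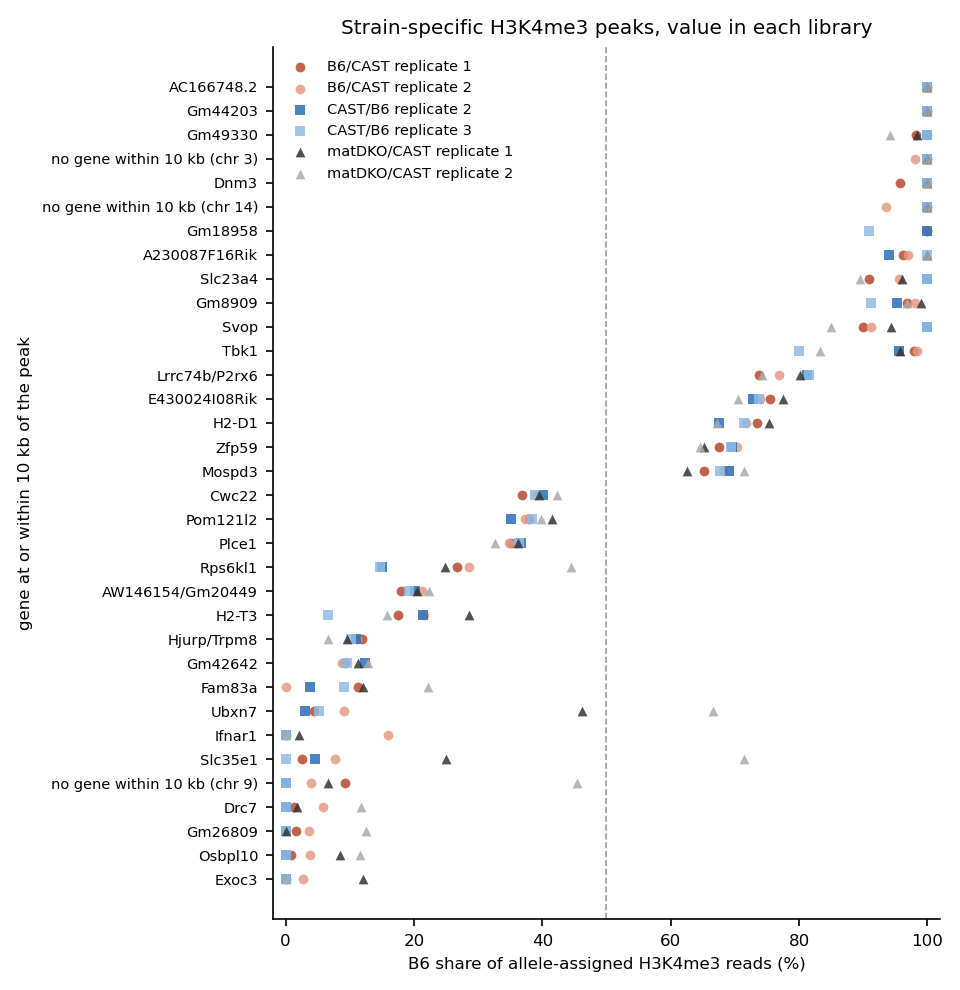
B6 share of allele-assigned H3K4me3 reads, in %, at the named strain-specific peaks with the largest ratios or the most reads. Each point is 1 library, with circles for B6/CAST, squares for CAST/B6 and triangles for matDKO/CAST, and the dashed line marks equal alleles. All wild-type points of a peak lie on 1 side of the line, and the matDKO/CAST points of Ubxn7 and Slc35e1 reach 66.7 and 71.4%.

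Peaks without a start site reached ratios of the same size. The largest fitted ratio toward CAST lay 720 bp from a start site of Gm26809 (chr6:18841500-18843500). There 58, 26, 93 and 22 CAST reads stood against 1, 1, 0 and 0 B6 reads, which are too few to settle its rank. An intronic peak of Drc7 (chr8:95062500-95064500), a part of the axonemal dynein regulatory complex, had B6 shares of 1.39, 5.88, 0 and 0%. An exonic peak of Exoc3 (chr13:74183000-74185000), an exocyst subunit, had 0, 2.70, 0 and 0%, and one of Ifnar1 (chr16:91495000-91497500), a type I interferon receptor chain, had 0, 16, 0 and 0%. An intergenic peak on chromosome 9 (chr9:69504500-69506500) had 9.30, 4.00, 0 and 0%. CAST took most reads at these 5 peaks, and neither CAST/B6 library had a B6 read at any of them.

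Toward B6, an intergenic peak on chromosome 3 (chr3:41123000-41125500) had 50, 51, 19 and 8 B6 reads and a single CAST read, in B6/CAST replicate 2. It lies on a chromosome where B6/CAST replicate 1 had a raised B6 share, and the other 3 libraries, which had no such rise, showed the same direction. An intronic peak of Dnm3 (chr1:162119500-162121500), a dynamin, had B6 shares of 95.7, 100, 100 and 100%. One of Svop (chr5:114051500-114053500), a synaptic vesicle protein, had 45, 31, 27 and 6 B6 reads against 5, 3, 0 and 0 CAST reads. B6 held nearly all reads at both. An intergenic peak on chromosome 14 (chr14:54492000-54493500) had 100, 93.5, 100 and 100%.

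At the other end of the range were well-covered peaks with smaller ratios. Mospd3 (chr5:137595000-137604000) had B6 shares of 65.2, 68.2, 69.0 and 67.6% on 2447 reads, a log2 ratio of 1.01 ± 0.12 (adjusted p = 4.82e-06). Cwc22 (chr2:77944000-77947500), a splicing factor, had 36.8, 39.0, 40.2 and 38.9% on 2799 reads (-0.70 ± 0.13, adjusted p = 0.000817), the smallest ratio among the 171. Plce1 (chr19:38478000-38490000), a phospholipase C, had 35.2, 34.9, 36.7 and 36.3%, and an intergenic peak 4194 bp from a start site of Pom121l2 (chr13:21969000-21977000) had 37.9, 37.2, 35.2 and 38.3%. These 4 peaks kept H3K4me3 on both alleles, with a B6 share that varied little between libraries. The same held toward B6 for Zfp59 (chr7:27837000-27840000), with 67.6, 70.3, 69.5 and 69.4%, and for E430024I08Rik (chr13:74461000-74464500), with 75.5, 74.0, 72.8 and 73.7%. Lrrc74b and the ATP-gated channel gene P2rx6 share a peak (chr16:17553000-17563000) with 73.8, 76.8, 81.2 and 81.6%. Its share was higher in both CAST/B6 libraries than in both B6/CAST libraries.

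Gene groups were then read through the peaks at their start sites, by the joint fit. Of 18281 genes with a start site in an informative peak, 598 had a called peak (3.27%), 392 toward B6 (2.14%) and 208 toward CAST (1.14%). The median log2 ratio over all such peaks was -0.0016 and its median size 0.139. Where genes share reads with near-identical copies, as in the families below, the allele counts are uncertain. DESeq2 called 349 of the 18281 genes (1.91%), among them 4 of 21 H2 genes, 3 of 25 innate immunity genes, 16 of 353 zinc finger genes (4.53%) and 4 of 65 detoxification genes (6.15%). With the library as a block 2583 genes were called (14.1%), and 9, 12, 77 (21.8%) and 14 (21.5%) in these lists.

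Of 21 genes of the H2 complex, the mouse major histocompatibility genes that present peptides to T cells, 4 were called toward B6 and 1 toward CAST, with a median log2 ratio of -0.02 and a median size of 0.36. H2-D1 (chr17:35257500-35265000), a classical class I gene, had B6 shares of 73.5, 71.8, 67.6 and 71.4% (log2 ratio 1.25 ± 0.17, adjusted p = 2.48e-05). H2-K1 (chr17:33998000-34004500), another classical class I gene, had 64.9, 62.9, 66.3 and 61.4% (0.80 ± 0.19, adjusted p = 0.00781). H2-Q1 (chr17:35319500-35322000) had 98.2, 89.4, 97.3 and 94.7%, with an input of 0.371 of the median, and the peak at H2-K2 (chr17:33977000-33983000) had 61.4, 52.5, 64.0 and 58.4%. With H2-T3 toward CAST, the complex held calls in both directions.

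Of 25 interferon-inducible and innate immunity genes, 5 were called toward B6 and 2 toward CAST (median log2 ratio 0.08, median size 0.37). The Trim5, Trim12a and Trim12c genes, of the family that restricts retroviral capsids, formed a run of 3 B6-higher peaks on chromosome 7. Trim12c (chr7:104351500-104354500) had B6 shares of 81.6, 80.6, 80.0 and 88.5% (2.14 ± 0.25, adjusted p = 2.73e-06). Trim12a (chr7:104314000-104317500) had 65.9, 82.9, 95.2 and 72.7% and Trim5 (chr7:104286500-104289000) had 96.0, 83.3, 72.7 and 100%, on 111 and 52 reads, with inputs of 0.339 and 0.132 of the median, and Trim12c also had a low input of 0.518. Toward CAST were Oas1g (chr5:120886500-120890000), an oligoadenylate synthetase, with B6 shares of 29.5, 24.0, 44.4 and 7.69%, and the GTPase gene Ifi47 (chr11:49087500-49089500), with 40.5, 17.3, 15.2 and 37.5%. Their adjusted p-values of 0.0475 and 0.0287 were close to the threshold, as were those of Trim5 (0.0339) and Trim12a (0.0201) toward B6. Ifi47 lies on chromosome 11.

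Of 353 zinc finger genes, 26 (7.37%) were called, 21 toward B6 and 5 toward CAST, with a median log2 ratio of 0.00 and a median size of 0.147. Beside Zfp59 they included Zfp808 (chr13:62129000-62131500) with B6 shares of 78.3, 78.3, 83.3 and 76.9% and an input of 0.432 of the median, and Zfp74 (chr7:29942500-29944500) with 34.9, 23.9, 23.1 and 16.7%. Zfp119b (chr17:55943500-55948500) had 69.8, 72.0, 76.9 and 80.0%. At Zfp879 (chr11:50840500-50842500) B6/CAST replicate 1 had 48.3% and the others 29.5, 24.5 and 28.0%, so on chromosome 11 the library that stands apart was the only one near equality. Input was below 0.6 of the median at 7 of the 26 called zinc finger peaks and at 16 of all 359 peaks of the list.

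Of 65 detoxification genes, 6 were called, all toward B6 (median log2 ratio 0.07, median size 0.221). The cytochrome gene Cyp4f39 (chr17:32491000-32493500) had B6 shares of 77.8, 73.8, 77.8 and 89.4% (1.81 ± 0.19, adjusted p = 8.59e-07), and its neighbour Cyp4f16 (chr17:32535500-32538000) had 70.6, 76.9, 84.6 and 66.7%. Akr1b8 (chr6:34350000-34355500), an aldo-keto reductase, had 77.5, 78.0, 89.3 and 92.3%. The glutathione transferase genes Gstm5 (chr3:107894500-107897500) and Gstp1 (chr19:4032000-4039500) had 71.7, 68.5, 80.2 and 87.5% and 62.9, 66.7, 60.4 and 70.7%. Gstm5 lies on chromosome 3, where B6/CAST replicate 1 had a raised B6 share. Predicted genes and RIKEN clones were called at 200 of 4062 (4.92%), 139 with a peak toward B6 and 62 toward CAST, with a median log2 ratio of 0.00. DESeq2 called 115 of them (2.83%, beside 1.91% of all genes), and 652 (16.1%, beside 14.1%) were called with the library as a block. Gm24245 and Gm25732 share a peak (chr4:139336000-139339000) with 23, 28, 19 and 2 B6 reads and no CAST read, at least 24-fold higher on B6.

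Of 15 epiblast and pluripotency genes, 1 was called (6.67%, beside 3.27% of all genes): L1td1 (chr4:98722000-98730000), which encodes an RNA-binding protein of pluripotent cells, with B6 shares of 57.8, 60.7, 64.6 and 59.8% (0.59 ± 0.14, adjusted p = 0.00659). The median over the list was 0.12. None was called by edgeR among 31 known imprinted genes, 26 DNA methylation and chromatin enzymes, 73 cytosolic ribosomal protein genes, 43 Hox genes, which share 8 peaks, and 6 germline genes, and DESeq2 called none either. At an unadjusted p-value below 0.05 and with 1 direction in both crosses these lists held 0, 3, 3, 0 and 0 genes, against 2035 of the 18281 genes in all. With the library as a block, the joint fit called 0, 3, 11, 0 and 1 of their genes, 4 of the 15 epiblast genes and 14.1% of all genes. These counts need the same direction in both crosses, which by itself bars a ratio that follows the parent. Of the 33 start-site peaks of the imprinted list, 27 had opposite directions in the crosses, as had 4720 of all informative start-site peaks (34.1%). Of the imprinted genes, 2 passed the strain term with such a peak (3 with the block). The median log2 ratios of these lists without a call by edgeR were, in the order above, 0.11, 0.01, 0.04, 0.02 and 0.00. Of 62 replication-dependent histone genes, which share 15 peaks, 1 was called by edgeR, 1 by DESeq2 and 5 with the library as a block. The gene called by edgeR was Hist1h4n (chr13:21820000-21832500), with B6 shares of 34.3, 28.0, 23.4 and 33.3%.

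Some genes had a second start site beside the strain-specific one. Of 43 protein-coding genes with such a peak, 12 had another informative peak at a different start site, and at 8 of these the other peak had the stronger total H3K4me3. At Osbpl10 the other peak had 20.5 RPKM against 4.14 RPKM, with 50.5% of its 2317 reads on B6 (log2 ratio -0.02 ± 0.13). At Tbk1 it had 11.4 against 1.54 RPKM with 55.5% of reads on B6 (0.26 ± 0.15), and at Slc23a4 9.99 against 1.82 RPKM with 42.9% on B6 (-0.57 ± 0.19, adjusted p = 0.0819). Atp9a, Slc25a12, Sult2b1, Tpd52 and Ccdc30 showed the same arrangement, with log2 ratios of -0.05 to 0.21 at the stronger peak. In these genes the strain difference was thus seen at a weaker, alternative start, beside a stronger promoter for which no difference was called. Among all 12, the other peak was called once, at Slc37a1, where it pointed toward CAST as well (-4.63 ± 1.33, adjusted p = 0.0366, on 39 reads).

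Calls from the joint fit rarely formed runs along a chromosome. There were 12 runs of at least 3 calls in 1 direction with gaps of at most 100000 bp, holding 36 calls, 11 of them toward B6 and 1 toward CAST. No run held a call in the other direction. The longest, at Pigb, Rsl24d1 and Gm27211 on chromosome 9, spanned 168500 bp and had 3 calls among 6 informative peaks. Zfp874a, Gm26965 and Zfp729b (161000 bp, chromosome 13), Cldn14 (136000 bp, chromosome 16), Dao, Svop and Acacb (130500 bp, chromosome 5) and Gm36298 with Platr25 (110000 bp, chromosome 13) followed. The only CAST run lay at Rsph1 and Slc37a1 on chromosome 17 and spanned 23500 bp, where input was 2.03 to 2.32 times the median. In the 11 runs toward B6 input was 0.132 to 1.31 times the median, and in 4 of them it was below the median throughout, as at Gm36298 and Platr25 (0.339 to 0.567). The part of input in the runs was not tested.

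The share of peaks called differed between positions, which were read from the GENCODE annotation. At start sites of coding genes 2.79% of 12773 peaks were called by the joint fit, while 11.2% of 1078 peaks at start sites of other genes only, 11.7% of 1410 exonic, 10.8% of 1867 intronic and 12.1% of 3200 intergenic peaks were called. The informative peaks were also split into 4 bins of equal size by total signal. Among start-site peaks the share called was 10.3% in the lowest bin, with a median of 121 reads, and 1.39% in the highest, with a median of 1473 reads. In the lowest bin, peaks with and without a start site were called in 10.3% and 11.7% of cases, and in the next bin in 5.83% and 12.5%. The median standard error of the log2 ratio was 0.46 and 0.51 in the lowest bin and 0.15 in the highest, and 0.30 in the second bin without a start site. A weak peak can be informative through its higher allele alone. A filter blind to the allele, of 20 reads over both alleles, was also stricter, since it asked for them in each library, and what each of these changes did was not separated. It left 12740 of the informative peaks, among them 78 of the 171 and 474 of the 1232. The joint calls were then 340, with 337 of the 474 among them, and the strain-specific peaks 37. The shares at start sites were then 7.69% of 156 peaks in the lowest bin and 1.12% of 4908 in the highest, and without a start site 9.94% of 181 and 6.06% of 33. Those by position were 1.74% at coding start sites, 7.00% at other start sites, 6.38% in exons, 11.6% in introns and 9.18% between genes. These shares were not tested against each other, and peaks of 1 library are not independent.

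**Figure D3:**
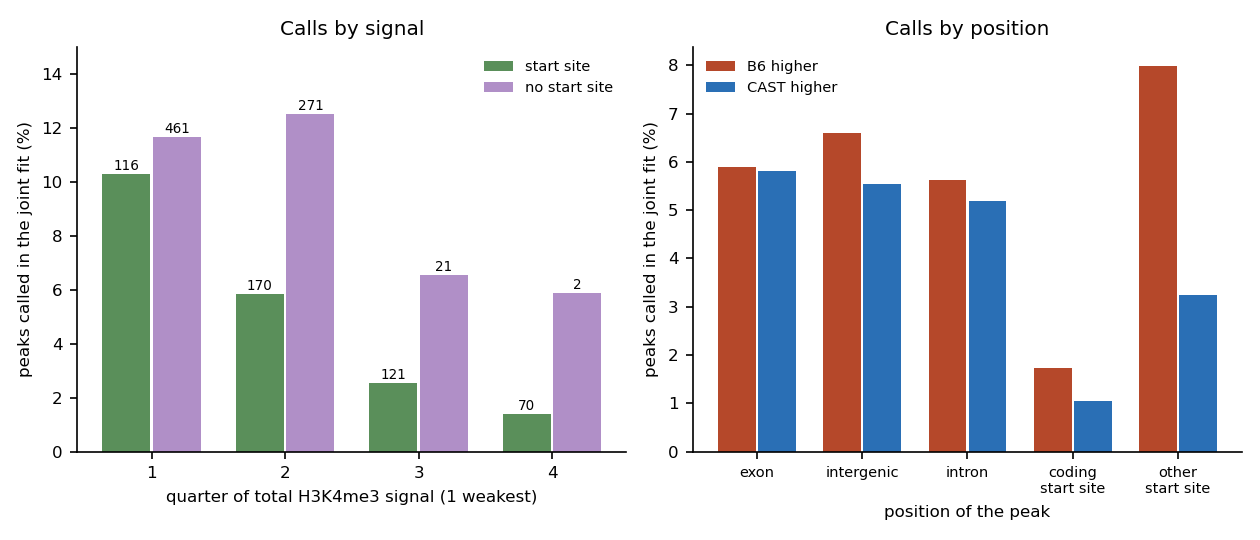
Left, the share of informative peaks called by the joint fit, in %, in 4 bins of total H3K4me3 signal, for peaks with and without a start site, with the number called above each bar. Right, the share called with the B6 and with the CAST allele higher, in %, by position of the peak. The share at coding start sites is the lowest of the 5 positions, and the 1078 peaks at other start sites are called toward B6 more often (86 peaks) than toward CAST (35 peaks).

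The 171 strain-specific peaks differed from the informative peaks in further respects. A start site lay in 43.3% of those toward B6 and 29.7% of those toward CAST, against 68.1% of all informative peaks. Their median length was 3001 bp against 4001 bp, their median ratio of observed to expected CpG 0.298 against 0.366, their share of repeat-masked bases 24.7% against 18.4%, and their total signal 2.35 against 6.06 RPKM. Among peaks with a start site the CpG ratio was 0.349 for strain-specific and 0.422 for all peaks, while among peaks without one it was 0.270 and 0.266. Of all reads over a peak, a median of 64.8% could be assigned to an allele at strain-specific peaks and 45.8% at all informative peaks. The part of this in the calls was not tested. Of the 107 strain-specific peaks without a start site, 57 lay within 10000 bp of one. All 171 overlapped a peak in the lists of both crosses, as did 94.0% of informative peaks.

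Input was read over the same peaks, since it is not enriched for H3K4me3. It was read over both alleles together. It was below 0.6 of the median peak at 11 of 97 B6-higher peaks (11.3%), at 2 of 74 CAST-higher peaks (2.70%) and at 0.866% of all informative peaks. It was above 1.5 times the median at 6 CAST-higher peaks (8.11%), at no B6-higher peak and at 0.108% of all informative peaks. Low input thus lay mostly on the B6 side and high input on the CAST side, while the median input of both groups, 0.472 and 0.521 RPKM, was near the 0.495 RPKM of all peaks. The low group included AC166748.2, Gm44203, Gm49330, H2-Q1 and Gm8909, and the high group was Hjurp, Gm42642, AW146154, Gm49692, Rsph1 and Slc37a1. The part of input in these ratios was not tested.

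**Figure D4:**
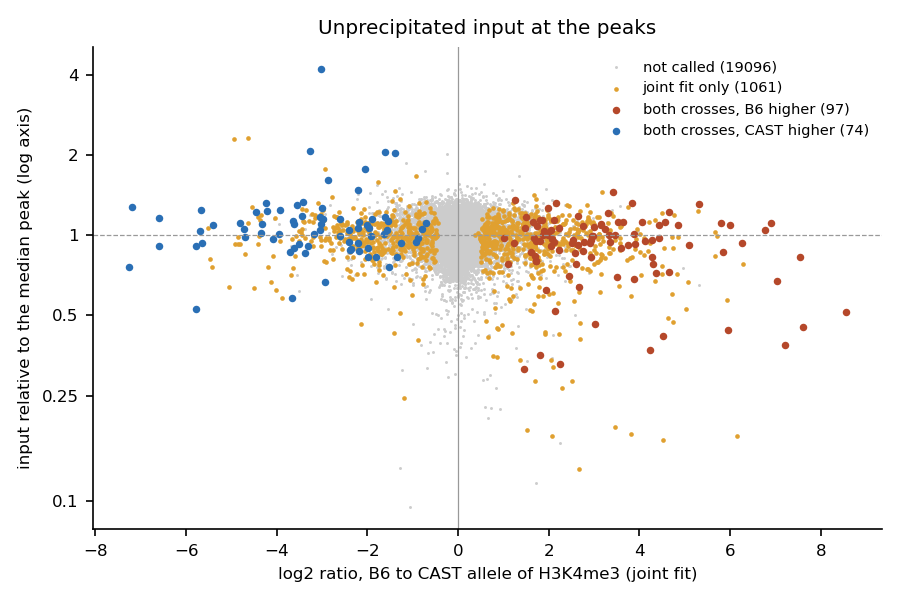
Input at each informative peak relative to the median peak (log axis) against the log2 ratio of the B6 to the CAST allele of H3K4me3 in the joint fit. Of the peaks called by the joint fit, 54 toward B6 and 9 toward CAST have an input below 0.6 of the median, and the 6 strain-specific peaks above 1.5 are all on the CAST side.

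The epiblast libraries of matDKO/CAST took no part in the calls, and carry the CAST allele from the father as B6/CAST does. There, 7.17% of the informative peaks were called. Of the 171 peaks, 168 had the same direction, 2 (Dnah6 and Ubxn7) had the opposite and Gm18958 had no assigned read. Of the B6-higher peaks 86 of 97 passed the threshold with the maternal allele higher (4.53% of all informative peaks did), and of the CAST-higher peaks 66 of 74 passed with the CAST allele higher (2.64%). With the library as a block the matDKO/CAST fit called 2293 peaks in place of 1457. The median ratio along the wild-type direction was 2.15 on the log2 scale in matDKO/CAST and 2.57 in B6/CAST, a cross in which the peaks had been chosen for their ratio, which by itself places it higher there. Of the 1061 peaks called by the joint fit alone, 1015 had the same direction in matDKO/CAST and 503 passed. Strain and parent cannot be told apart in matDKO/CAST, which was made in 1 direction.

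The exceptions were few. A test of the difference between matDKO/CAST and B6/CAST, added after the data were seen, passed at 137 of all peaks (0.674%), 125 further toward the maternal allele in matDKO/CAST and 12 further toward CAST, and at 3 of the 171, all toward the maternal allele. At Dnah6 (chr6:73220500-73224500), a ciliary dynein, the wild-type B6 shares were 32.7, 26.8, 24.6 and 19%, while the maternal share in matDKO/CAST was 90.8 and 77.3% (difference 3.99 on the log2 scale, adjusted p = 5.46e-06). At Fermt2 (chr14:45527000-45532000), an integrin-binding kindlin, they were 27.4, 25.1, 26.2 and 23.5% and then 45.6 and 56.4% (1.36, adjusted p = 0.0274). At Ubxn7 the shares of 3.05 to 9.17% became 46.2 and 66.7%, on 13 and 6 reads (3.97, adjusted p = 0.00884). The 2 matDKO/CAST libraries of ExE, which were not in this test, also lay above the wild-type shares: the maternal share was 86.2 and 81.8% at Dnah6, and 54.1 and 57.9% at Fermt2, while Ubxn7 had 11 maternal to 14 CAST reads and 7 to 7. Slc35e1 had 25 and 71.4% in epiblast, on 8 and 7 reads, and did not pass (adjusted p = 0.175). Trim12a, with a wild-type B6 share of at least 65.9%, had no maternal read against 8 and 1 CAST reads in matDKO/CAST (adjusted p of the difference 0.0954). It passed toward CAST in the fit of matDKO/CAST alone (adjusted p = 0.0461). In matDKO/CAST ExE it had 0 maternal to 6 and 4 CAST reads. Trim5 had 0 maternal to 3 CAST reads in matDKO/CAST epiblast replicate 1 and no read in replicate 2. Trim12c, of the same run, kept maternal shares of 80.8 and 78.3%. In matDKO/CAST the maternal allele can be 129 and the oocytes lacked both methyltransferases, and these cannot be told apart here. Variants that 129 shares with CAST were not used in that cross, and reads assigned to 129 in a second step were added to the maternal allele. What this did to the ratios was not tested.

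**Figure D5:**
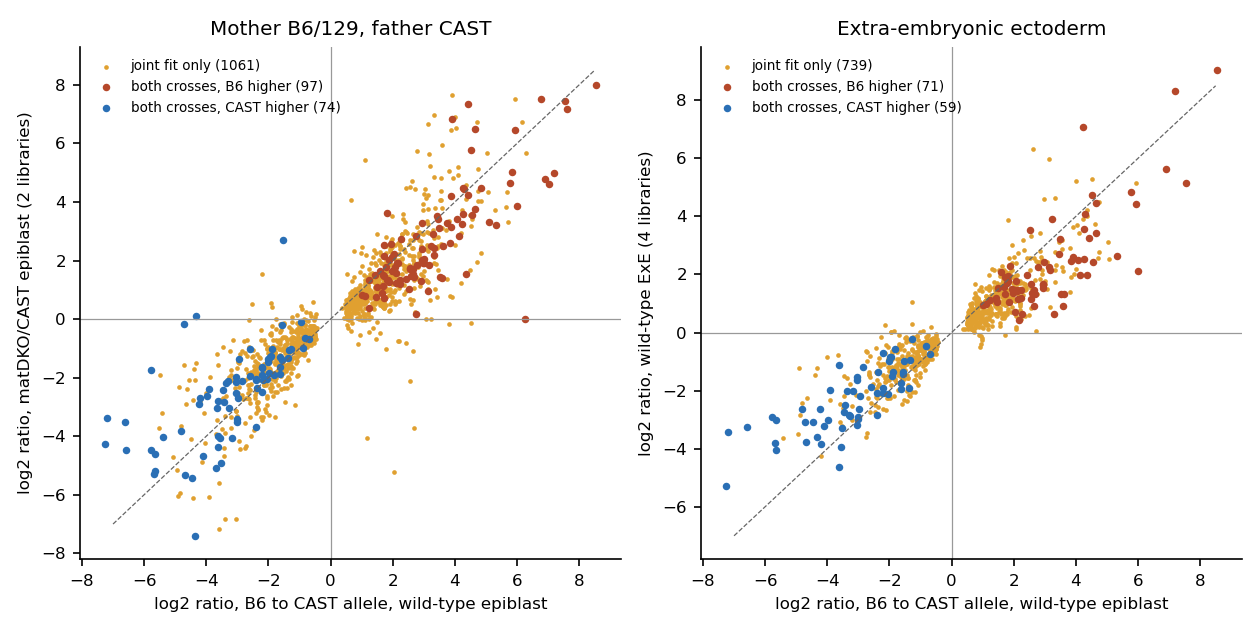
Log2 ratio of the B6 to the CAST allele in the wild-type epiblast (horizontal) against the ratio in matDKO/CAST epiblast (left, mother B6 or 129) and in wild-type ExE (right), for peaks called in both crosses or by the joint fit alone; the dashed line marks equality. Most points lie in the lower left and upper right quadrants, and in ExE all 130 matched strain-specific peaks do.

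Wild-type ExE gave 918 strain-specific peaks (3.96% of its 23211 informative peaks) and 4356 by the joint fit (18.8%). Its 4 libraries held 4.25 to 6.82 M allele-assigned reads in autosomal peaks, beside 1.36 to 6.06 M in epiblast. The part of depth in these counts was not tested. Of the 171 epiblast peaks, 164 overlapped an ExE peak, and 130 could be matched over at least 50% of both peaks and were informative in both tissues. All 130 had the same direction in ExE. There, 67 of 71 B6-higher and 55 of 59 CAST-higher peaks passed the threshold (5.93% and 5.15% of the 14767 matched peaks did, and 11.1% in either direction). The ratios were smaller in ExE: the median along the epiblast direction was 2.97 in epiblast and 1.98 in ExE over the same 130 peaks. The peaks had been chosen on the epiblast ratio, which by itself places it higher in epiblast, and the medians were not tested. At Hjurp the ExE shares of B6 were 11.9, 10.3, 13.1 and 10.7%, and at AW146154 18.8, 18.4, 20.1 and 19.9%, nearly those of the epiblast.

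The strain ratio differed between the tissues at 13 of 14767 matched peaks (0.088%), 10 with the epiblast ratio further toward B6 and 3 further toward CAST. With the library as a block the count was 133, with 70 toward B6 and 63 toward CAST. At Ooep (chr9:78376500-78379500), an oocyte protein of the subcortical maternal complex, the B6 share was 90.7, 87.0, 97.4 and 88.9% in epiblast and 68.9, 68.5, 61.0 and 66.7% in ExE (difference 2.70 ± 0.44, adjusted p = 0.00466). Serinc2 (chr4:130250500-130254000) had 77.6, 75.6, 90.2 and 79.2% in epiblast and 56.6, 48.8, 65.4 and 62.2% in ExE. An intronic peak of Ankrd6 (chr4:32833000-32835000) had 73.1, 77.8, 96.4 and 88.9% in epiblast and 42.9, 49.5, 55.9 and 61.5% in ExE. In all 3 the tissues did not overlap, and the B6 bias was stronger in epiblast.

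Toward CAST, the intronic peak of 1700025G04Rik (chr1:151878500-151883000) had B6 shares of 11.2, 9.38, 6.67 and 3.23% in epiblast and 32.0, 31.9, 37.5 and 28.4% in ExE (difference -2.52 ± 0.32, adjusted p = 0.000273). An intergenic peak on chromosome 6 (chr6:39757000-39765000) had 28.3, 30.8, 29.3 and 33.3% in epiblast and 55.8, 50.8, 55.3 and 61.7% in ExE. At Rims2 (chr15:39240500-39250500), a presynaptic scaffold, the direction was opposite, with 45.5, 39.1, 13.8 and 33.3% in epiblast and 67.5, 70.7, 72.1 and 63.8% in ExE (-2.37 ± 0.39, adjusted p = 0.00500). An intergenic peak on chromosome 2 (chr2:172221000-172223500) had 6.52, 9.86, 6.82 and 6.94% in ExE, while in epiblast 40, 39, 35 and 4 B6 reads stood against 78, 59, 28 and 16 CAST reads and no strain difference was called. Slc38a4 (chr15:97047500-97057000), a paternally expressed imprinted amino acid transporter, passed as well, but its B6 share of 8.67 and 8.77% in B6/CAST and 99.1 and 100% in CAST/B6 followed the parent and was not called a strain difference.

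H3K27me3, the Polycomb mark of silent promoters, and H3K36me3, the mark of transcribed gene bodies, had been read in other libraries of the same crosses. Of the 171 peaks, 39 overlapped an informative H3K27me3 peak. The strain ratio had the same direction in 23 and the opposite in 16, and 11 were called by the joint fit of H3K27me3, 7 in the same and 4 in the opposite direction, where 7.1% of 8924 H3K27me3 peaks were called (634 peaks, and 1394 with the library as a block). For H3K36me3, 28 of the 41 peaks that overlapped one had an informative peak there, 21 had the same direction and 6 were called, all in the same direction, where 4.42% of 11076 were called.

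Among the called ratios, more H3K27me3 on the allele that has less H3K4me3 was seen at 4 peaks, of which 3 are named. Near Rnf19b (chr4:129094000-129096000), a ubiquitin ligase gene, the B6 share was 20.5, 28.7, 12.1 and 15.8% for H3K4me3 and 72.0, 70.6, 74.6 and 65.0% for H3K27me3 (log2 ratio 1.24 ± 0.20, adjusted p = 0.000190). At Plce1 it was 35.8% ± 0.870 (SD, n = 4) for H3K4me3 and 63.5, 72.9, 58.3 and 63.4% for H3K27me3 (0.76 ± 0.19, adjusted p = 0.0111). A peak on chromosome 5 (chr5:111508000-111510500) had 89.5, 72.5, 88.0 and 100% B6 reads for H3K4me3 and 47.5, 24.2, 40.7 and 31.7% for H3K27me3 (-0.81 ± 0.25, adjusted p = 0.0467). It is intergenic in GENCODE, while RefSeq has a start of Gm36223 in it. At the other 7 peaks with a called ratio both marks favoured the same allele. At Gm8909 the B6 share of H3K27me3 was 78.7, 82.9, 79.5 and 80.7%, at an exonic peak of Gm45824 (chr8:47762500-47765500) it was 44.6, 30.8, 30.7 and 30.8%, at Gm49692 (chr12:20226500-20234500) it was 20.3, 13.7, 13 and 15.7%, and at Gm42642 it was 32.4, 7.41, 20.3 and 18.6%. Input was low at Gm8909 (0.418) and high at Gm49692 (1.61) and Gm42642 (2.06), and its part in the ratios was not tested.

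The 6 peaks with a called H3K36me3 ratio had more of both marks on the same allele. At Cwc22 the B6 share of H3K36me3 over the gene body was 39.1, 35.2, 39.4 and 37.8%, close to the 38.7% ± 1.40 (SD, n = 4) of H3K4me3 at its promoter (log2 ratio of H3K36me3 -0.80 ± 0.07, adjusted p = 2.66e-19). At Hjurp it was 18.8, 9.26, 17.4 and 13.5% (-2.64 ± 0.25, adjusted p = 1.44e-18), and at AW146154 43.4, 44.0, 40.3 and 42.1% (-0.50 ± 0.12). The H3K36me3 peak over the intergenic peak on chromosome 8 (chr8:78013000-78020000) had 39.6, 36.4, 41.9 and 45.1%. The intronic peak of Gm38019 (chr1:140040000-140043500) had 37.5, 38, 32.8 and 32.1%, and E430024I08Rik, the only one toward B6, had 57.1, 62.2, 67.7 and 52.9% (0.59 ± 0.18, adjusted p = 0.0277). These ratios were smaller than those of H3K4me3 at 5 of the 6, Cwc22 being the exception.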

How the data were processed

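Chromatin immunoprecipitation of H3K4me3, H3K27me3 and H3K36me3, and input, were from pools of epiblast or ExE at E6.5. Groups and replicate numbers came from the labels. According to the methods and, for versions, the submitters' processing notes, the authors trimmed reads (Trim Galore 0.4.4 in the notes), aligned them with Bowtie2 2.3.2 to GRCm38 masked at B6 and CAST variants, split them by allele with SNPsplit and called peaks with chromstaR, merging both crosses; in matDKO/CAST, variants shared by 129 and CAST were left out and reads assigned to 129 were added to the maternal allele. Masking lowers the pull toward the reference allele, and a locus missing from the reference or repeated in 1 strain can still move a ratio. The deposited allelic tables hold raw read counts per peak and allele. The authors deposited RPKM per 1 kb window without regard to allele, used here for total signal, markers and input. Peak lists served for positions alone, and the score column the authors deposited in them is 0 throughout.

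Maternal and paternal columns were recoded as B6 and CAST. Tests were two-sided quasi-likelihood F tests of edgeR 4.0.16 (R 4.3.3) with TMM factors and Benjamini-Hochberg adjustment over all informative autosomal peaks, in each cross and in a joint fit with cross, strain and parent. Both allele columns of a library are 1 sample, which makes the library a real block; the fits with it were made as alternatives, as the methods name none. With 2 pools per cross, p-values measure the spread between these pools. DESeq2 1.42.0 was an alternative. The difference between tissues was the strain by tissue term over peaks that overlap by at least 50%. Log2 ratios carry their standard error, shares of the 4 libraries their SD; a fold over a zero count used a floor of 3 reads over the group, shares are as counted, and floors cover counting error only. The scripts were tested on simulated counts. Genes are from GENCODE vM21, promoters from RefSeq, both GRCm38. A peak is named by the genes that start in it, else the nearest within 10000 bp. Whether a peak holds a start site was read from GENCODE alone, and RefSeq can place a start where GENCODE has none. Coordinates are those of the allelic tables. Tables were made with pandas 2.3.3 under Python 3.11.15 and figures with matplotlib 3.10.9.

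Named peaks are the 10 with a start site and at least 100 reads and the 5 without one that have the largest ratio in each direction, the 5 per direction with the most reads, the 5 per direction with the largest tissue difference, those with a called H3K27me3 or H3K36me3 ratio, the 5 longest runs and up to 5 called members of each gene list. The peaks of the alternative start sites, the 3 differing in matDKO/CAST, and Slc35e1, Trim12a, Trim5 and Trim12c there, were named after their values were seen. Members and lists were chosen with earlier results of these data known. Peaks on chromosome 18 are counted but not named. Of the gene lists, Slc7a3 is on chromosome X and not in the RPKM table. ExE tables of the other 2 marks were not used.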

Additional observations from a re-analysis of the deposited data

Results flagged for a closer look

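The strain ratio differed between epiblast and ExE at 13 matched peaks by the test of the difference itself. Over the alternatives run, the named differences kept their call in 47 cases, lost it in 38 and were not tested in 3. The differences of the log2 ratio, epiblast minus ExE, were 3.09 at the intergenic peak on chromosome 2 (chr2:172221000-172223500), 2.70 at Ooep, 2.66 at Ankrd6, 2.10 at the imprinted Slc38a4 and 1.73 at Serinc2. Toward CAST they were -2.52 at 1700025G04Rik, -2.37 at Rims2 and -1.58 at the intergenic peak on chromosome 6 (chr6:39757000-39765000).

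The ratio differed between matDKO/CAST and B6/CAST at 3 strain-specific peaks, again by a test of the difference. It was further toward the maternal allele in matDKO/CAST by 3.99 at Dnah6, 3.97 at Ubxn7 and 1.36 at Fermt2 on the log2 scale, and these calls were kept in 13 cases and lost in 5. The cause of these differences was not tested.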

How the results depend on the processing

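The 171 strain-specific peaks became 67 at an adjusted p-value below 0.01, 303 with no filter on low counts, 37 with a filter blind to the allele, under which 78 of the 171 were tested, 59 with DESeq2, and between 3 and 120 when 1 library was left out. The 1232 peaks of the joint fit became 697 at 0.01, 340 with the filter blind to the allele, and between 121 and 888 with 1 library left out. With 1 size per library for both alleles the joint calls were 64.3% B6-higher, against 57.4%. The cause of these shifts was not tested, except that a stricter threshold leaves fewer calls by construction.

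With the library as a block, the replicate block of this design, the counts were 596 and 3552 in epiblast, 2293 in place of 1457 in matDKO/CAST, 1394 in place of 634 for H3K27me3, 133 in place of 13 for the difference between the tissues, and 314 in place of 137 for the difference of matDKO/CAST from B6/CAST. The pairing comes from the design, since both alleles are read in 1 library.

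The filter blind to the allele left 686 calls in matDKO/CAST and 7 tissue differences. With 1 library left out, the counts ranged from 29 to 279 in matDKO/CAST, from 304 to 654 (of 918) and 2428 to 3069 (of 4356) in ExE, from 176 to 994 for H3K27me3, from 186 to 379 (of 490) for H3K36me3, from 2 to 23 for the tissue difference and from 11 to 219 for matDKO/CAST against B6/CAST. No named value reversed its direction under the alternatives run. Of the strain ratios of named peaks under them, 877 stayed past the threshold or on their side of it and 95 lost it, 31 of these without CAST/B6 replicate 2. In 48 further cases the peak was not tested, 37 of them (of 68 named peaks) under the filter blind to the allele. The named tissue differences kept the call in 47 cases, lost it in 38 and were not tested in 3, and the named differences of matDKO/CAST kept it in 13 and lost it in 5. Of the 4 wild-type H3K4me3 libraries of epiblast, CAST/B6 replicate 3 had the fewest reads (1.36 M).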
